A study of Solanum chacoense with 24 samples.

Results

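Leaves of USDA8380-1, a genotype of the wild potato relative Solanum chacoense, were compared after 48 h in cages with Colorado potato beetles and in a beetle-free cage. The comparison holds 4 of the 24 RNA-seq libraries of the series, beetle replicates 1 and 2 against control replicates 1 and 3, all chosen by their labels. USDA8380-1 is a line of an accession known for leptines, acetylated steroidal glycoalkaloids of the leaf that deter this beetle.

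In potato and its relatives, chewing of a leaf releases wound signals that lead to the synthesis of jasmonates. Jasmonates free transcription factors of the MYC2 type from JAZ repressors, and genes of proteinase inhibitors, polyphenol oxidases and further anti-nutritive proteins are then transcribed, in the wounded leaf and in leaves distant from it. Such defences add to those that the leaf holds before any attack, among them the glycoalkaloids. None of these genes could be followed by name here. The counts carry 32917 identifiers and 0 of them are paired with a gene name or product, so no pathway, tissue marker or sequence is described, and genes are given by identifier only.

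The plants stood in mesh cages in a growth chamber, 2 of a genotype to a cage. For each genotype 2 cages were given adult beetles, taken from a field of the cultivar Atlantic and starved for 6 h, and 1 cage was left without. The 50 beetles were added when the plants were 15 weeks old, and the third fully expanded leaf was sampled just before (0 h) and after 24 and 48 h. Each library is a pool of such leaf tissue. USDA8380-1 at 48 h is read here beside the same arms at 0 h (4 libraries) and 24 h (4 libraries) and beside the beetle and control arms of the second genotype, EE501F2_093, at 48 h (4 libraries). The labels do not say which plants or cages went into which pool. A cage difference and an effect of beetles cannot be told apart within a genotype, fewer cells of a type and less RNA per cell cannot be told apart in such pools, and p-values measure only the spread between these pools, which the labels call biological replicates. The labels mention a defoliation score at 48 h, which is not analysed here.

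Depth did not separate the arms. The beetle libraries held 33570721 and 35305211 counts on genes, and the control libraries 40750079 and 27859692, in replicate order. Between 25248 and 25629 genes had at least 1 count in each. Elsewhere in the series the library totals lay between 2114184, in the shallow library USDA8380-1 beetle 0 h replicate 3, and 51999317. The 4 libraries kept to their labelled genotype. For 55 genes read almost only in EE501F2_093 and chosen without the 48 h libraries of USDA8380-1, their summed level was 0.707 and 1.74 CPM with beetles and 1.18 and 1.14 CPM in the controls, against 338.5 to 459.8 CPM in EE501F2_093 (CPM, counts scaled to a common library total with TMM factors). For 27 genes read almost only in USDA8380-1, summed levels were 254.9 and 231.4 CPM with beetles and 162.4 and 388.6 CPM in the controls, against at most 3.51 CPM in EE501F2_093.

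The 4 libraries did not group by arm. Among the 14391 genes with a mean of at least 5 CPM in them, beetle replicate 2 and control replicate 3 were the closest pair, with 514 genes (3.57%) more than 2-fold apart. Beetle replicate 1 and control replicate 1 were the most distant pair, with 3507 genes (24.4%). The beetle replicates were more than 2-fold apart for 1141 genes (7.93%) and the control replicates for 1916 (13.3%). The other two pairs across the arms differed at 1266 genes (beetle 1 and control 3) and 1521 genes (beetle 2 and control 1). Beetle replicate 2 was thus the nearest library to each of the other three, control replicate 1 included. Across genes, log2 CPM correlated at 0.975 for the closest pair, 0.964 within the beetle arm, 0.945 within the control arm and 0.920 for the most distant pair.

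**Figure D1:**
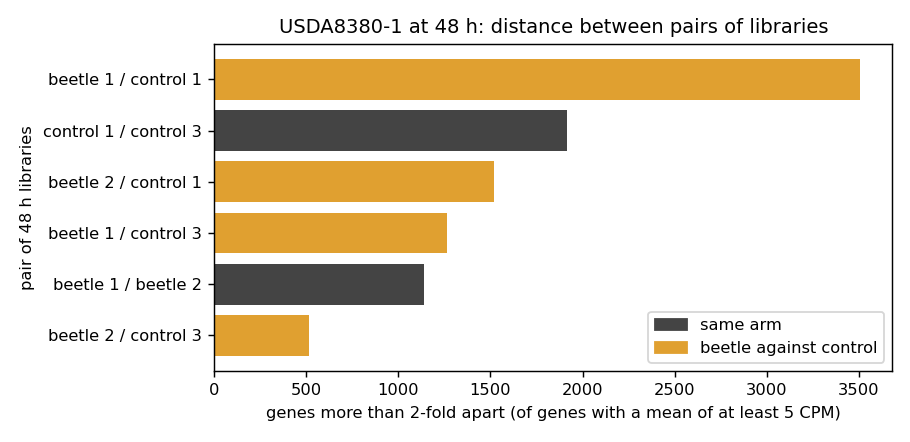
Genes more than 2-fold apart (x axis) for each of the 6 pairs of USDA8380-1 libraries at 48 h (y axis), among 14391 genes with a mean of at least 5 CPM. The pair of beetle replicate 2 and control replicate 3 has the shortest bar (514 genes) and the pair of beetle replicate 1 and control replicate 1 the longest (3507 genes), with both pairs of the same arm between them.

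Control replicate 1 stood apart from the other 3 libraries. In it 109 genes (0.757% of those of at least 5 CPM) were at least 4-fold above each of the others and 152 genes (1.06%) at least 4-fold below. Beetle replicate 1 had 44 such genes above (0.306%) and 14 below (0.0973%). Beetle replicate 2 had 4 above (0.0278%) and 0 below, and control replicate 3 had 0 above and 5 below (0.0347%). The 109 genes made up 1.21% of the counts of control replicate 1 and at most 0.136% in the other three. They were chosen for this excess, so the counts describe the library and carry no test. Of the 109 genes, 94 were also higher there than in all 8 libraries of USDA8380-1 at 0 and 24 h, and of the 152 low genes 114 were lower than in all 8. The 109 genes had a median of 53.3 CPM in control replicate 1, 4.95 to 5.33 CPM in the other three, 3.62 to 16.4 CPM in the earlier libraries of USDA8380-1 and 10.4 to 28.0 CPM in the EE501F2_093 libraries. For 93 of them (85.3%) the median over EE501F2_093 libraries was above that over the earlier USDA8380-1 libraries, against 50.9% of all genes of at least 5 CPM. The 152 low genes had a median of 1.73 CPM in control replicate 1, 14.35 to 23.5 CPM in the other three and 1.249 to 7.70 CPM in EE501F2_093, and for 16 of them (10.5%) the median over EE501F2_093 was the higher. The genes read almost only in EE501F2_093 were no higher in control replicate 1, at 1.18 CPM, than in beetle replicate 2, at 1.74 CPM.

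**Figure D2:**
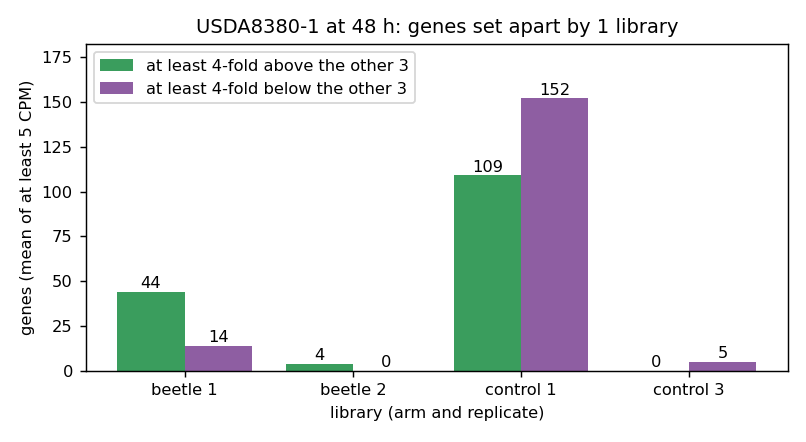
Number of genes (y axis, mean of at least 5 CPM) that were at least 4-fold above (green) or below (purple) each of the other 3 libraries, for each USDA8380-1 library at 48 h (x axis). Control replicate 1 has the tallest bars, 109 genes above and 152 below, while beetle replicate 2 and control replicate 3 have at most 5.

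Which genes differed with 48 h of beetles was tested with edgeR's quasi-likelihood test on counts, in a fit of all 24 libraries. No gene passed: edgeR called 0 of 24870 genes tested (0%) at a Benjamini-Hochberg adjusted p under 0.05, and the smallest adjusted p was 0.912. At an unadjusted p under 0.05 there were 1311 genes (5.27%), 758 higher with beetles and 553 lower, where a share of 0.05 would give 1243.5. The excess of higher genes depended on the fit. It was absent under the replicate block (529 higher and 548 lower) and smaller with RLE scaling (664 and 618). With the 4 libraries fitted alone it was larger (653 and 300). DESeq2 called 19 genes (0.0764%), 9 of them higher with beetles and 10 lower. In 6 of those 9 genes a control library had 0 counts or under 0.2 CPM, and in all 10 lower genes control replicate 1 was the highest library. The number of genes at an unadjusted p under 0.05 was 379 without control replicate 1, 417 without beetle replicate 1 and 206 without both, each below 5% of the genes tested. It was 1948 without beetle replicate 2 and 2379 without control replicate 3. That last fit has control replicate 1 as its sole control, assumed to vary like the other groups, and edgeR called 12 genes in it, all of them lower with beetles.

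The libraries of the arms did not overlap for 8854 genes (35.6% of those tested). If the 4 libraries were in random order, arms of 2 against 2 would not overlap in a share of 0.333. Of the 14391 genes of at least 5 CPM, 542 (3.77%) had arms that did not overlap and an absolute log2 fold change of at least 1, which is a description and not a test. They were 353 genes higher with beetles (2.45%) and 189 lower (1.31%). In the 353 higher genes beetle replicate 1 was the highest library for 293 (83.0%) and control replicate 1 the lowest for 288 (81.6%). In the 189 lower genes control replicate 1 was the highest library for 172 (91.0%) and beetle replicate 1 the lowest for 152 (80.4%). The nearest libraries of opposite arms were at least 2-fold apart for 78 of the 353 higher genes and for 9 of the 189 lower genes. The median log2 fold change was 1.41 in the higher genes, up to 7.06, and -1.30 in the lower genes, down to -4.93, against 0.0017 over all genes tested.

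The median of the 353 higher genes was 29.4 and 16.6 CPM in the 48 h beetle libraries, within the 11.9 to 30.4 CPM of the beetle arm at 0 and 24 h. In the 48 h controls it was 5.91 and 8.77 CPM, below the 11.8 to 22.2 CPM of the control arm at 0 and 24 h. The 189 lower genes had a median of 6.47 and 9.57 CPM with beetles and of 32.4 and 14.5 CPM in the controls at 48 h, where the earlier controls had 6.62 to 13.1 CPM and the earlier beetle arm 8.85 to 15.0 CPM. In both sets the 48 h control libraries lay outside the range of the earlier controls. The sets were chosen on the 48 h libraries, so this order is a description.

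The genes with the smallest p in each direction, among those of at least 5 CPM with arms that did not overlap and a log2 fold change of at least 1 in size, were looked at library by library. Soltu.DM.10G005300.1, on chromosome 10 by its identifier, had 37.7 and 24.5 CPM with beetles (31.1 ± 9.38, SD, n = 2) and 5.64 and 4.29 CPM in the controls (4.96 ± 0.953, SD, n = 2). Both beetle libraries were several-fold above both controls, and all 4 libraries took part in the gap. The beetle-to-control difference came to 2.64 on the log2 scale (SE 0.55), with the smallest unadjusted p of all genes tested (1.94e-04) and an adjusted p of 0.912 in edgeR. It stayed between 2.30 and 2.92 when any of the 4 libraries was left out, and was 2.51 without both libraries numbered 1. DESeq2 called this gene (adjusted p = 0.00763). Before the beetles the arms already stood apart, at 31.0 and 74.5 CPM in the later beetle cages, the second value from the shallow library, and 20.6 and 11.9 CPM in the controls. Subtracting the 0 h contrast left 0.96 on the log2 scale (SE 0.74, adjusted p = 0.549 in edgeR). At 24 h the gene had 31.3 and 85.2 CPM with beetles and 17.2 and 9.22 CPM in the controls, also without overlap. The log2 fold change at that hour was 2.14 (SE 0.54, adjusted p = 0.370 in edgeR). In EE501F2_093 at 48 h the gene had 27.7 and 21.1 CPM with beetles and 8.40 and 4.43 CPM in the controls, which is 1.93 on the log2 scale (SE 0.54, adjusted p = 1 in edgeR). There too the arms stood apart at 0 h, with 16.5 and 14.9 CPM in the later beetle cages and 9.58 and 8.09 CPM in the controls.

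Soltu.DM.01G049230.1, on chromosome 1 by its identifier, had 29.4 and 13.2 CPM with beetles and 7.62 and 4.10 CPM in the controls. The arms did not overlap, and beetle replicate 2 was the nearer to the controls. The log2 fold change was 1.86 (SE 0.45, unadjusted p = 8.41e-04, edgeR adjusted p = 0.912), and 1.17 without beetle replicate 1. The gap was present before the beetles, with 21.4 and 19.3 CPM in the later beetle cages and 6.97 and 7.69 CPM in the controls at 0 h. In EE501F2_093 at 48 h it was not seen, with 5.87 and 4.28 CPM with beetles and 5.58 and 7.64 CPM in the controls. The difference between the genotypes was 2.24 on the log2 scale (SE 0.63, unadjusted p = 0.00268, edgeR adjusted p = 1.00).

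Both genes chosen by that rule among the lower ones lie on chromosome 3 by their identifiers, and in both most of the 48 h gap came from control replicate 1. Soltu.DM.03G005570.1 had 1.10 and 1.65 CPM with beetles and 25.3 and 2.50 CPM in the controls, in replicate order. Control replicate 3 lay close to the beetle libraries. The log2 difference came to -3.34 (SE 0.77, unadjusted p = 4.87e-04, adjusted p = 0.912 in edgeR), and -0.86 without control replicate 1. Without control replicate 3 it was -4.20 and edgeR called it (adjusted p = 0.0128). At 0 h its level was 0.685 to 1.18 CPM in all 4 libraries of USDA8380-1. In EE501F2_093 at 48 h it had 7.64 and 8.25 CPM with beetles and 8.37 and 12.5 CPM in the controls. The arms did not overlap there either (log2 fold change -0.39). Control replicate 1 of USDA8380-1 at 48 h exceeded all these levels. Soltu.DM.03G030200.1 had 5.41 and 7.69 CPM with beetles and 62.1 and 9.37 CPM in the controls. Here too control replicate 3 was next to the beetle libraries. The log2 fold change was -2.45 (SE 0.59, unadjusted p = 7.42e-04, edgeR adjusted p = 0.912), -0.52 without control replicate 1 and -3.25 without control replicate 3, where edgeR called it (adjusted p = 0.0089). At 24 h Soltu.DM.03G030200.1 had 11.5 and 11.9 CPM with beetles and 20.5 and 29.5 CPM in the controls, also without overlap. The order was opposite at 0 h, with 8.14 and 10.2 CPM in the later beetle cages and 4.74 and 4.47 CPM in the controls. In EE501F2_093 at 48 h Soltu.DM.03G030200.1 had 8.07 and 9.68 CPM with beetles and 15.1 and 11.3 CPM in the controls. Those arms did not overlap (log2 fold change -0.57). DESeq2 called both genes in the full comparison of USDA8380-1 at 48 h, with adjusted p of 0.0148 and 0.0425.

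**Figure D3:**
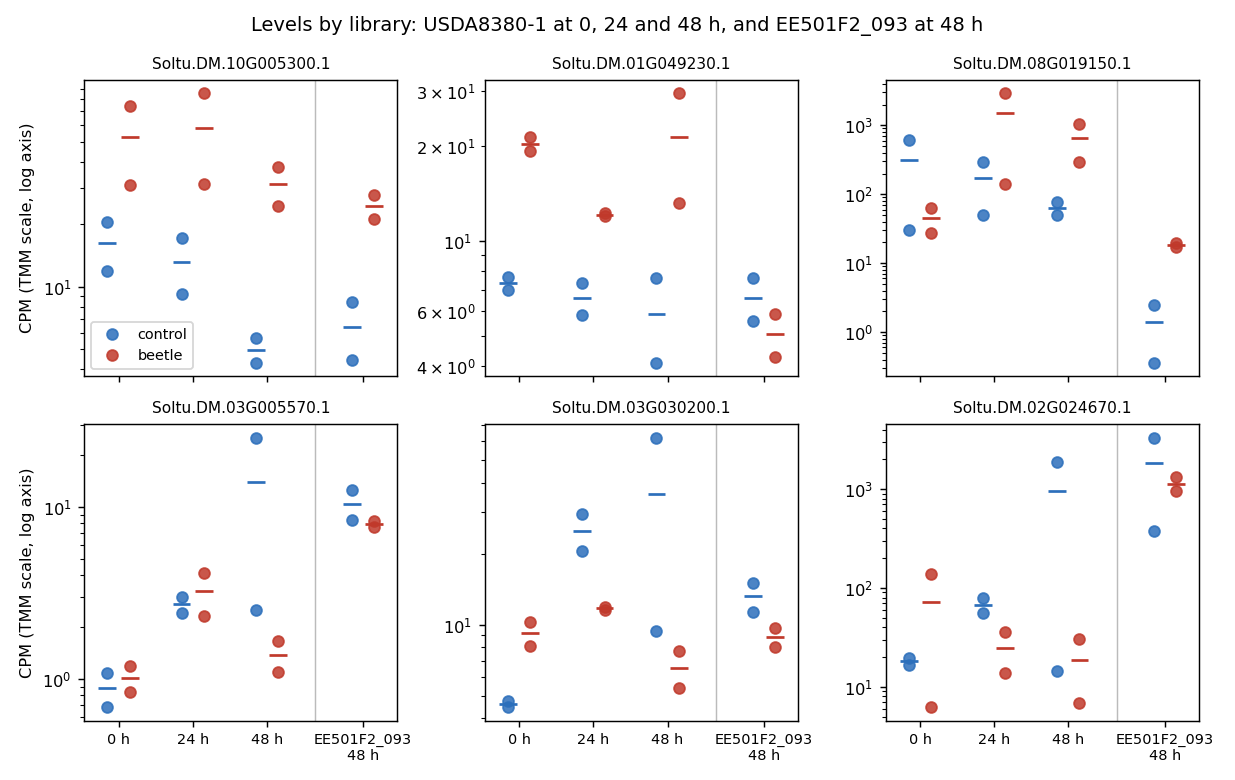
CPM on a log axis (TMM scale) of 6 genes in each library, control in blue and beetle in red, for USDA8380-1 at 0, 24 and 48 h and, right of the grey line, EE501F2_093 at 48 h; points are libraries and short lines are means of 2. At 48 h both beetle points of Soltu.DM.10G005300.1 (37.7 and 24.5 CPM) lie above both control points (5.64 and 4.29 CPM), whereas in Soltu.DM.03G005570.1, Soltu.DM.03G030200.1 and Soltu.DM.02G024670.1 a single control point is high.

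The most abundant gene of the 4 libraries, Soltu.DM.09G025910.1, had 29685 and 11561 CPM with beetles and 8919 and 11529 CPM in the controls. Beetle replicate 2 and control replicate 3 were level, and beetle replicate 1 alone was high. The log2 difference came to 1.01 (SE 1.29, adjusted p = 0.938 in edgeR), and 0.18 without beetle replicate 1. Among genes of at least 100 CPM, the largest log2 fold change upward was that of Soltu.DM.08G019150.1, with 1032 and 293.2 CPM with beetles and 50.3 and 76.2 CPM in the controls. The arms did not overlap at 48 h (log2 fold change 3.39, SE 1.48, unadjusted p = 0.0362, edgeR adjusted p = 0.912). In the controls the gene had 604.2 and 29.99 CPM at 0 h and 298.6 and 50.1 CPM at 24 h. It had 27.7 and 63.5 CPM in the later beetle cages at 0 h and 138.9 and 2898 CPM with beetles at 24 h. The arms overlapped at both of these hours. The log2 fold change was -2.82 at 0 h (SE 1.46, adjusted p = 0.419 in edgeR) and 3.12 at 24 h (SE 1.46, adjusted p = 0.430 in edgeR). In EE501F2_093 at 48 h Soltu.DM.08G019150.1 had 19.8 and 17.0 CPM with beetles and 0.357 and 2.48 CPM in the controls. The largest log2 fold change downward was that of Soltu.DM.02G024670.1, with 6.79 and 30.6 CPM with beetles and 1882 and 14.4 CPM in the controls. Control replicate 3 lay between the beetle libraries. The log2 difference came to -5.66 (SE 1.93, adjusted p = 0.912 in edgeR) and turned to 0.38 without control replicate 1. The level in control replicate 1 was outside the 6.23 to 138.7 CPM of the 8 earlier USDA8380-1 libraries and inside the 166.7 to 3779 CPM of EE501F2_093.

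No chromosome stood far from the rest. The share of tested genes at an unadjusted p under 0.05 was lowest on chromosome 4 (97 of 2297, 4.22%) and highest on chromosome 12 (118 of 1763, 6.69%), against 5.27% over all genes. On chromosome 4, 46 of these genes were higher with beetles and 51 lower, and on chromosome 12, 68 were higher and 50 lower. Median log2 fold changes by chromosome lay between -0.017 and 0.020. By abundance the share was 5.69% under 1 CPM, 5.83% from 1 to 10 CPM, 4.81% from 10 to 100 CPM and 3.83% over 100 CPM. In the most abundant class 25 such genes were higher with beetles and 36 lower. These shares describe the genes and were not tested.

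**Figure D4:**
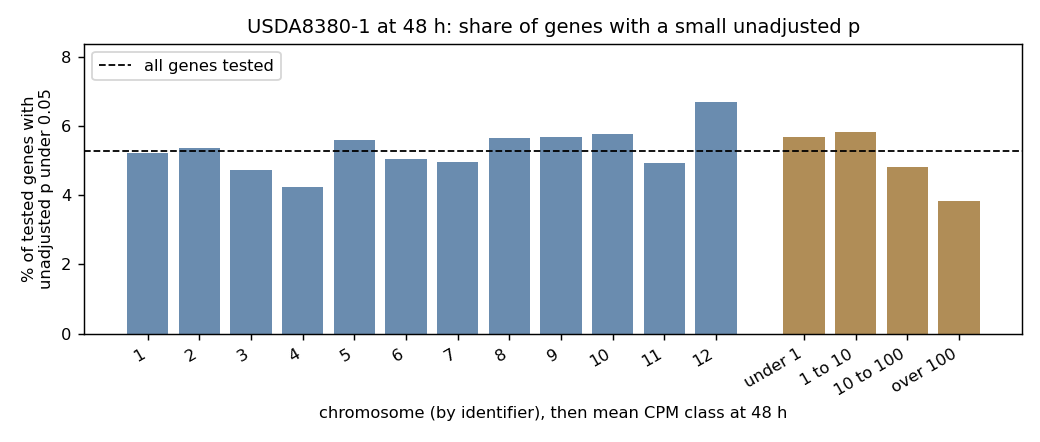
Percentage of tested genes with an unadjusted p under 0.05 (y axis) in the 48 h beetle contrast of USDA8380-1, by chromosome as read from the identifiers (blue) and by mean CPM class (brown); the dashed line is the share over all genes, 5.27%. The bars stay between 3.83% (over 100 CPM) and 6.69% (chromosome 12).

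Genes that are neighbours in the order of their identifiers differed together at some places. There were 42 runs of at least 3 tested genes in a row that were higher with beetles, with arms that did not overlap and a log2 fold change of at least 1 each, and 13 such runs of lower genes, 200 genes in all. Most of these genes were sparse, and 35 of the 155 in higher runs and 11 of the 45 in lower runs reached a mean of 5 CPM. Among all genes tested, 3935 (15.8%) had a log2 fold change of at least 1 in size, whether or not the arms overlapped. Both conditions were met by 542 of the 14391 genes of at least 5 CPM (3.77%), and the share among sparser genes is not given here. How many runs the genes meeting both conditions would form in a random order was not tested. The longest run, of 10 genes on chromosome 8, summed to 33.9 and 7.04 CPM with beetles and 4.30 and 4.86 CPM in the controls, so that beetle replicate 1 carried it. A run of 4 genes on chromosome 7, all of at least 5 CPM, summed to 1137 and 413.3 CPM with beetles and 183.9 and 291.2 CPM in the controls. In EE501F2_093 at 48 h the same 4 genes summed to 103.3 and 332.8 CPM with beetles and 3.375 and 10.1 CPM in the controls. A run of 4 genes on chromosome 5 summed to 604.8 and 348.1 CPM with beetles and to 135.4 and 134.1 CPM in the controls at 48 h. At 0 h it averaged 387.2 CPM in the later beetle cages and 425.8 CPM in the controls, so that the 48 h controls were the low libraries. Neighbouring genes of a family may share reads, and the counts cannot show whether they did.

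The arms before any beetle was placed gave the background for the 48 h contrast. At 0 h edgeR called 1 gene, Soltu.DM.01G040240.1 (0.00402% of those tested, adjusted p = 0.0300), with 3227 at an unadjusted p under 0.05 (13%), more than the 1311 with beetles at 48 h. The 0 h count of 3227 became 737 without the shallow library and 1237 without control 0 h replicate 2. The call was lost without either of these or without control 0 h replicate 3. With beetle replicate 2 of that hour left out, so that its arm rests on the shallow library, edgeR called 1227 genes. Of the 353 genes higher with beetles at 48 h, 145 (41.1%) had the same sign at 0 h, against 36.0% of all genes of at least 5 CPM that were higher at 48 h. At 0 h 52 of the 353 (14.7%) were already apart in the same direction, with arms that did not overlap and a log2 fold change of at least 1, against 4.77%, and 34 (9.63%) were apart in the opposite direction, against 8.18%. Of the 189 lower genes, 35 (18.5%) had the same sign at 0 h, against 30.01%, 8 (4.23%) were already apart in that direction, against 2.25%, and 51 (27.0%) had been the other way round at 0 h with arms that did not overlap and a log2 fold change of at least 1, against 8.02%. The change of the contrast from 0 to 48 h was tested directly. The fit took libraries of different hours as independent, though the controls of a genotype came from 1 cage at every hour. In all 0 genes (0%) were called by edgeR, and 3455 (13.9%) had an unadjusted p under 0.05, with a smallest adjusted p of 0.194, and DESeq2 called 199. Without control replicate 3 at 48 h edgeR called 35 genes, and without beetle replicate 2 at 0 h it called 780. Without the shallow library 1384 genes had an unadjusted p under 0.05, without control 0 h replicate 2 1369, without control 48 h replicate 1 1217 and without beetle 48 h replicate 1 1393, and without both the shallow library and control 24 h replicate 2 the number was 1755.

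Of genes with a mean of at least 5 CPM over both hours, those with the smallest p for that change in each direction differed mainly in the controls. Soltu.DM.01G040240.1 had 1.00 and 0.652 CPM in the controls at 0 h, 16.4 and 26.0 CPM at 24 h and 102.4 and 38.2 CPM at 48 h. In the beetle arm it had 32.4 and 150.9 CPM at 0 h and 46.9 and 68.3 CPM at 48 h, so that the arms overlapped at 48 h. Its change was -7.06 on the log2 scale (SE 1.09, unadjusted p = 7.80e-06, edgeR adjusted p = 0.194). Soltu.DM.01G039150.1 went the other way, with 146.7 and 43.8 CPM in the controls at 0 h, 85.4 and 49.8 CPM at 24 h and 13.2 and 8.69 CPM at 48 h. The beetle arm had 18.3 and 8.28 CPM at 0 h and 28.3 and 12.99 CPM at 48 h. That change came to 3.69 on the log2 scale (SE 0.78, adjusted p = 0.316 in edgeR). In the controls 5 genes were at least 4-fold lower in both 48 h libraries than in all 4 earlier ones. Genes as much higher there numbered 0, and in the beetle arm 0 genes differed so in either direction. These counts took genes with a mean of at least 5 CPM over all hours of the arm.

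Whether 48 h differed from 24 h was tested as the difference of the beetle contrasts, again with libraries of different hours taken as independent. At 24 h 0 genes (0%) were called by edgeR, and 2876 (11.6%) had an unadjusted p under 0.05. It called 1831 genes at that hour without control 24 h replicate 1, 98 without beetle 24 h replicate 1 and 6 without control 24 h replicate 2. The count at an unadjusted p under 0.05 at 24 h was 6828 without control replicate 1, 1430 without control replicate 2, 1607 without beetle replicate 2 and 580 with the 4 libraries of that hour fitted alone. For the change from 24 to 48 h 0 genes (0%) were called, 2458 (9.88%) had an unadjusted p under 0.05, with a smallest adjusted p of 0.475, and DESeq2 called 56. No replicate in the series lay further from its partner than control replicate 2 at 24 h, with 9542 genes (38.4%) more than 2-fold apart. Without it the count at an unadjusted p under 0.05 was 1447 and edgeR called 3 genes, and without its partner, control 24 h replicate 1, the counts were 5845 and 366. Without control 48 h replicate 1 it was 1290 at an unadjusted p under 0.05, and without beetle 48 h replicate 1 it was 1188. Of the 353 higher genes 194 (55.0%) had the same sign at 24 h, against 43.8% of all genes of at least 5 CPM that were higher at 48 h, and 50 (14.2%) were apart in that direction without overlap and by at least 1 on the log2 scale, against 3.10%. In the opposite direction 25 (7.08%) were so apart, against 3.29%. Of the 189 lower genes 78 (41.3%) had it, against 41.8%, with 17 (8.995%) apart in that direction, against 1.565%, and 30 (15.9%) in the opposite one, against 3.57%.

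Soltu.DM.12G000130.1 had the smallest p among genes whose contrast was higher at 48 h than at 24 h. The limit of 5 CPM was here set on the mean over both hours. At 48 h this gene averaged 3.85 CPM with beetles and 1.23 CPM in the controls. It passed the limit through the 24 h controls, with a mean of 15.9 CPM. It had 4.81 and 2.89 CPM with beetles and 1.201 and 1.252 CPM in the controls at 48 h, but 2.44 and 5.99 CPM with beetles and 21.9 and 9.89 CPM in the controls at 24 h. The arms were in the opposite order at these hours, without overlap, and the controls held most of the change. The difference was 3.56 on the log2 scale (SE 0.73, edgeR adjusted p = 0.475). Soltu.DM.11G020440.3 went the other way, with 2.12 and 5.24 CPM with beetles and 8.22 and 14.0 CPM in the controls at 48 h, and 9.33 and 10.4 CPM with beetles and 3.11 and 2.30 CPM in the controls at 24 h. That difference was -3.45 (SE 0.85, edgeR adjusted p = 0.475).

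EE501F2_093, whose plants and cages were separate, gave a second beetle contrast at 48 h. In EE501F2_093 at 48 h 0 genes (0%) were called by edgeR, and 693 (2.79%) had an unadjusted p under 0.05, 370 without control replicate 1 and 1419 without control replicate 2, and DESeq2 called 5. Of the 353 genes higher with beetles in USDA8380-1, 303 (85.8%) were also higher with beetles in EE501F2_093, against 57.7% of all genes of at least 5 CPM that were higher in USDA8380-1. For 111 of the 353 (31.4%) the arms of EE501F2_093 did not overlap either and differed in the same direction by at least 1 on the log2 scale, against 4.58%, and 4 (1.13%) did so in the opposite direction, against 0.229%. Their median log2 fold change in EE501F2_093 was 0.68. The median level of the 353 in EE501F2_093 was 18.5 and 15.9 CPM with beetles and 8.96 and 10.3 CPM in the controls at 48 h. Before any beetles it was 18.95 and 15.7 CPM in the later beetle cages and 13.2 and 13.6 CPM in the controls, so that the arms stood in the same order there. Of the 189 lower genes 125 (66.1%) were also lower there, against 60.5%, and 5 (2.646%) met the same condition, against 0.703%. Their median log2 fold change there was -0.22. These shares describe genes, which are not independent replicates, and carry no test.

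The share with the same direction varied with the pair of libraries. For genes of at least 5 CPM that were at least 2-fold higher in a beetle library than in a control library, the share also higher in EE501F2_093 was 71.5% for beetle 1 against control 1 (2148 genes), 75.9% for beetle 1 against control 3 (739 genes) and 77.3% for beetle 2 against control 1 (1019 genes). For beetle 2 against control 3 it was 56.4% of 298 genes. For genes at least 2-fold lower it was 67.4% (1359 genes), 47.8% (527), 68.9% (502) and 34.3% (216) in the same order. Control replicate 1 was in both pairs with a high share of lower genes. For all genes of at least 5 CPM, by the contrast of the arms and without a fold limit, the shares were 57.7% (higher) and 60.5% (lower). The shares of lower genes in both pairs with control replicate 3 lay below that. So did the share of higher genes for beetle 2 against control 3.

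**Figure D5:**
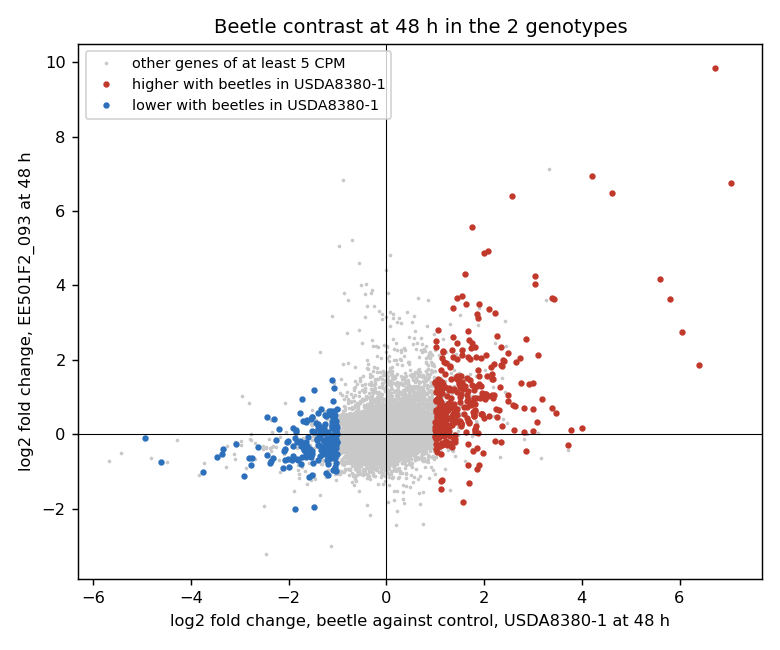
Log2 fold change of beetle against control at 48 h in USDA8380-1 (x axis) and EE501F2_093 (y axis) for genes of at least 5 CPM in USDA8380-1, with the 353 genes higher (red) and the 189 genes lower (blue) by the rule on USDA8380-1 given in the text. Of the red points 303 lie above the horizontal zero line, and of the blue points 125 lie below it.

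The difference of the beetle contrasts between the genotypes was tested in the same fit. In all 0 genes (0%) were called by edgeR, and 434 (1.75%) had an unadjusted p under 0.05, and DESeq2 also called 0. Soltu.DM.06G018650.1 had the smallest p among genes with a higher contrast in USDA8380-1 and a mean of at least 5 CPM over both genotypes. In USDA8380-1 it had 27.7 and 29.8 CPM with beetles and 12.3 and 7.13 CPM in the controls. In EE501F2_093 it had 9.33 and 14.9 CPM with beetles and 39.9 and 45.6 CPM in the controls. The arms were in opposite order in the genotypes without overlap, with a difference of 3.38 on the log2 scale (SE 0.94, unadjusted p = 0.00242, edgeR adjusted p = 1.00). At 0 h the arms of Soltu.DM.06G018650.1 already stood in these orders. In USDA8380-1 the later beetle cages had 32.9 and 30.7 CPM and the controls 17.8 and 27.5 CPM. In EE501F2_093 the later beetle cages had 20.3 and 15.0 CPM and the controls 33.2 and 35.6 CPM. At 24 h the arms of USDA8380-1 overlapped, with 49.8 and 17.5 CPM with beetles and 193.1 and 24.2 CPM in the controls. The log2 fold change at that hour was -1.69. At 48 h Soltu.DM.02G026930.1 had 7.07 and 6.24 CPM with beetles and 12.6 and 8.46 CPM in the controls of USDA8380-1. In EE501F2_093 it had 8.43 and 5.82 CPM with beetles and 3.02 and 3.23 CPM in the controls. That difference was -1.85 (SE 0.50, unadjusted p = 0.00186, edgeR adjusted p = 1.00). At 0 h Soltu.DM.02G026930.1 already had 14.7 and 14.6 CPM in the later beetle cages and 21.4 and 20.8 CPM in the controls of USDA8380-1. Its arms overlapped at 0 h in EE501F2_093. Neither difference between the genotypes passed the adjustment.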

How the data were processed

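The deposited values are raw counts of reads per gene, 1 file a library. Per the submitters' processing notes, Trimmomatic 0.35, STAR 2.7.3a, Picard and HTSeq were used, without parameters. Genome build and annotation: not given in the sources used here. Per the labels' protocols, the libraries were stranded mRNA libraries read as single ends of 50 nt. The 5 summary lines of HTSeq were left out of library sizes and tests, and reads outside genes or ambiguous made up 8.99 to 11.4% in the 48 h libraries of USDA8380-1. Whether near-identical genes shared reads is not known.

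Genes with enough counts (filterByExpr) were kept, 24870 in all, normalised by TMM. Tests were edgeR's quasi-likelihood ones (edgeR 4.0.16, R 4.3.3), from a fit of 24 libraries in 12 groups (12 residual degrees of freedom), with Benjamini-Hochberg adjustment. SE are those implied by the test statistic. The log2 CPM behind correlations had 2 as prior count. DESeq2 1.42.0 and the alternatives of the closing section were run on the same counts, and the edgeR steps were tested on simulated data. An exact permutation test of 2 against 2 libraries cannot go below a two-sided p of 0.333, so none is given. Genes almost only read in a genotype had at least 1 CPM in all its libraries and a median under 0.05 CPM in the other, without the 48 h libraries of USDA8380-1.

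The named genes have a mean of at least 5 CPM, a log2 fold change of at least 1 in size and, in contrasts of arms, arms that do not overlap, and then the smallest p: 2 per direction at 48 h and 1 per direction in each difference. The mean was taken over all libraries of the groups compared, so a difference used the libraries of both hours or both genotypes. The most abundant gene and the largest change per direction over 100 CPM were added. The comparisons, rules and alternatives were chosen with earlier results of these data known. Planned gene lists and leaf markers needed gene names and were not used.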

Additional observations from a re-analysis of the deposited data

Results flagged for a closer look

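In 4 of the named genes both arms differed without overlap but in opposite order between 2 hours or 2 genotypes. Soltu.DM.12G000130.1 (log2 fold change 1.645 at 48 h, with the opposite order at 24 h) and Soltu.DM.11G020440.3 (-1.591 at 48 h, with the opposite order at 24 h) differed between hours in USDA8380-1. Soltu.DM.06G018650.1 (1.562 in USDA8380-1) and Soltu.DM.02G026930.1 (-0.66 in USDA8380-1) differed between the genotypes at 48 h. In USDA8380-1 both of the latter already had this order of arms, without overlap, at 0 h. Soltu.DM.06G018650.1 already had its 48 h order at 0 h in EE501F2_093 too. In USDA8380-1 at 24 h its arms overlapped, with a log2 fold change of -1.69. All 4 genes were named for these differences between hours or genotypes, none of which passed the adjustment in edgeR's test.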

How the results depend on the processing

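edgeR called 0 genes for 48 h of beetles under RLE scaling, no filter on low counts, robust dispersions, the replicate block, the 4 libraries alone, without both libraries that stood apart at 0 and 24 h, and without both 48 h libraries numbered 1 (the last chosen after seeing the data). DESeq2 called 19 genes there, 199 for the change from 0 to 48 h, 386 at 0 h, 237 at 24 h, 56 for the change from 24 to 48 h and 5 in EE501F2_093. Leaving out 1 library gave 0 to 12 calls at 48 h, 0 to 780 for the change from 0 h, 0 to 1227 at 0 h, 0 to 1831 at 24 h and 0 to 366 for the change from 24 h. A lone library is then assumed to vary like the other groups. Without both libraries that stood apart there were 0 calls at 0 h and 4 at 24 h.

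With the replicate block there were 0 calls at 0 h and 1 at 24 h, and 1077 genes at an unadjusted p under 0.05 at 48 h, 529 higher and 548 lower. The 48 h arms share only the number 1, and the deviations of beetle 1 and control 1 from their partners correlated at -0.32 across genes. A single correlation cannot show whether libraries of equal number share more than that number, and the labels do not say. The log2 fold change of Soltu.DM.02G024670.1 lay between -7.13 and 0.38 when 1 library was left out and was 1.09 without both libraries numbered 1; the cause was not tested. With RLE scaling the 48 h counts at an unadjusted p under 0.05 were 664 higher and 618 lower. With 2 libraries an arm the median SE was 0.364 on the log2 scale for genes of at least 5 CPM.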
